A study of Mus musculus with 16 samples.

Results

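10 genes grouped under growth arrest and targets of the tumour suppressor p53 were described here, 10 of the 24060 genes in the tables. The group also holds Mycl, of a growth-promoting family. The 10 genes were measured in the cortex and in the cortical astrocytes of naïve and acutely stressed mice. They were chosen by name, and the choice was made with measured values in view: Cdkn1a, Trp53inp1, Gadd45g, Gas1 and Mycl were picked partly because their levels differed between stressed and naïve mice in the astrocyte fraction, and Gadd45a, Gadd45b, Mdm2, Ccng1 and Sesn1 complete the set as further Gadd45 genes or p53 targets. The difference between stressed and naïve mice in the astrocyte fraction is therefore given below as a description without a test. All 10 genes had a mean above 1 CPM (fragments on a gene per 1000000 fragments on all genes) in every comparison, so none was lost to the filter on low values, and each was counted with 36 to 4324 reads in a library.

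The libraries came from somatosensory cortex of Aldh1l1CreERT2-RiboTag mice on a C57BL/6J background, aged 3 months and injected with tamoxifen at 2 months, naïve and stressed alike. In these mice Cre is driven by the promoter of Aldh1l1, a gene of astrocytes, and switches on Rpl22 with an HA tag, a protein of the large ribosomal subunit, so that astrocyte ribosomes with their mRNA can be precipitated. Stressed mice swam for 20 min and rested for 90 min in the home cage before RNA was taken, and naïve mice stayed in the home cage. RNA of the precipitate (IP) and of the cleared lysate, which holds all cell types (INPUT), was sequenced in 4 libraries for each condition, 16 in all, named here by library number. Because the labels do not tie IP libraries to INPUT libraries by mouse, libraries were treated as independent samples.

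p53 is a transcription factor that is kept scarce by the ubiquitin ligase Mdm2, itself a p53 target, and that accumulates after DNA damage and other forms of cell stress. Among its targets, Cdkn1a encodes p21, an inhibitor of cyclin-dependent kinases that holds cells in G1, Gadd45a encodes a small protein that acts in growth arrest and DNA repair, Ccng1 encodes cyclin G1, Sesn1 encodes sestrin 1, which restrains mTORC1 signalling, and Trp53inp1 encodes a nuclear protein that takes part in p53-dependent arrest and in autophagy. Gadd45b and Gadd45g are paralogs of Gadd45a that respond to many stimuli and bind the kinase Map3k4. Gas1 encodes a surface protein, first found in arrested fibroblasts, that is also a co-receptor of the Hedgehog pathway, and Mycl encodes a member of the MYC family of growth-promoting transcription factors. Several of these genes are also known to respond to glucocorticoids, hormones released in stress, and mature cortical astrocytes are largely not dividing.

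p53 binds a site of 20 bases made of a pair of 10-base units. The 250 bases before each RefSeq start of these genes (GRCm38.p6, the mm10 assembly) were searched for it. RefSeq windows were matched for 9 of the 10 genes, 11 windows in all, and Trp53inp1 had none. The consensus site was searched with the units adjacent and up to 1 mismatch outside the invariant C and G. It was in 1 window of Cdkn1a and in the Ccng1 window, 2 of 11, and in 0.0578% of 32851 promoter windows of the genome (19). These windows are shown whole because they hold the site that names this gene group, 5′ to 3′ on the strand of the gene with the site, and for Cdkn1a a further 10-base unit, in capitals. The Cdkn1a window shown is chr17:29090729-29090978 on the plus strand and the Ccng1 window is chr11:40755287-40755536 on the minus strand.
Cdkn1a: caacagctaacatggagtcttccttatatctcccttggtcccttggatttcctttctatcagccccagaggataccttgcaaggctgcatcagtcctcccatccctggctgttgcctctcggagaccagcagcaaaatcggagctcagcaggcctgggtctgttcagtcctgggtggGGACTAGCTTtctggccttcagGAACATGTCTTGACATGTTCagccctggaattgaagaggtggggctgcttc
Ccng1: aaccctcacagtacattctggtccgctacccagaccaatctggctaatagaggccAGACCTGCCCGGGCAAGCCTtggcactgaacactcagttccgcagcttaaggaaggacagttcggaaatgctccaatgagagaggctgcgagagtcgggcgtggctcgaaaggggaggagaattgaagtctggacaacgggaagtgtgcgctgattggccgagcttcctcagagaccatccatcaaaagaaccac
The site of Cdkn1a runs from base −51 to −32 and that of Ccng1 from −195 to −176, counted back from the start of the window shown. Cdkn1a has another RefSeq start downstream, at chr17:29093769, and the window before that start held neither the site nor a single unit. A single 10-base unit without mismatch was in 6 of the 11 windows, against 7.13% of all windows. The units in windows where the whole site was not found are given next, to be compared with each other. Bases outside the windows were not searched.
Gadd45a: GGGCTAGCCC
Mdm2: GAACTTGCCT
Sesn1: AAGCTTGTTT
Mycl: GGGCTTGTCT
These windows were not tested for binding in this study, and a match is a description of letters only.

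Windows of the Gadd45 genes are shown because these 3 paralogs differed in the sign of the IP to INPUT ratio described below. Capitals mark the 10-base p53 unit in Gadd45a (chr6:67037408-67037657, minus strand) and the E-box CACGTG in Gadd45b (chr10:80929841-80930090, plus strand) and Gadd45g (chr13:51846425-51846674, plus strand).
Gadd45a: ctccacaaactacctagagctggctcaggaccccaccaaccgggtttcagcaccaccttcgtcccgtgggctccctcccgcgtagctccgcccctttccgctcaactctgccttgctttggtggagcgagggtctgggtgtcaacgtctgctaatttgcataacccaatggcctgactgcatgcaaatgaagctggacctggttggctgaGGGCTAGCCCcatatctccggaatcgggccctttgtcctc
Gadd45b: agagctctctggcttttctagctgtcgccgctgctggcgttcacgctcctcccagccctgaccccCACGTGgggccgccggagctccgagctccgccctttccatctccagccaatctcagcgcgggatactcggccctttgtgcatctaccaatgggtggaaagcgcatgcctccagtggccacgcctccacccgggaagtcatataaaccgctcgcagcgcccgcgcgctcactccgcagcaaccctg
Gadd45g: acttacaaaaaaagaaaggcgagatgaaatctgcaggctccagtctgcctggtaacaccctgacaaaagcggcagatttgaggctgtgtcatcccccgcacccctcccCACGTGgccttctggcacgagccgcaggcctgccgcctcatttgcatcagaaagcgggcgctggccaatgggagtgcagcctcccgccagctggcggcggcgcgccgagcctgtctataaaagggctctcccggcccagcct
CACGTG, whose letters read alike on both strands, was in 2 of the 11 windows and in 6.02% of all windows. The glucocorticoid receptor motif ACANNNTGT, also the same on both strands, was in 0 of the 11 and in 5.84% of all windows. TGACG, part of the binding site of CREB and searched on both strands, was in 1 window of Sesn1 (17.8% of all windows), and GTAAACA, a site of forkhead factors also searched on both strands, was in the Mdm2 window (3.17% of all windows).

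The depth ranged from 16392876 to 25814364 reads on genes per library (median 21167241), at which 3 reads equal at most 0.183 CPM. Intervals from counts would cover counting error only, and the spread between 4 libraries set the precision. The astrocyte label was checked on markers: 8 of 8 astrocyte markers were higher in IP than in INPUT (limma, adjusted p under 0.05), with a summed level of 93099 to 97121 CPM in naïve IP against 5895 to 6302 CPM in naïve INPUT. Of 35 markers of other cell types, 29 were lower in IP and 3 were higher (Cnp, Pdgfrb and Ttr), and neuronal markers summed to 423 to 551 CPM in naïve IP against 9753 to 10194 CPM in naïve INPUT. Some libraries stood apart from the rest of their group. In naïve IP library 11 the glucocorticoid target Fkbp5 was at 39.8 CPM, while the rest of naïve IP had 5.31 to 8.55 CPM and stressed IP 20.1 to 71.8 CPM, and in naïve INPUT library 14 it was at 49.3 CPM, while the rest of naïve INPUT had 22.5 to 27.1 CPM and stressed INPUT 43.7 to 62.7 CPM. Naïve IP library 2 held 113.6 CPM of the choroid plexus gene Ttr, and the rest of that group 1.59 to 3.45 CPM. Naïve INPUT library 3 held 13.4 CPM of Ttr, and the rest of naïve INPUT 0.294 to 0.966 CPM. The X-linked transcript Xist was present in 2 of the 4 libraries of every group, so both sexes were in each.

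The levels of the 10 genes in every library show a different layout for nearly every gene.

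**Figure D1:**
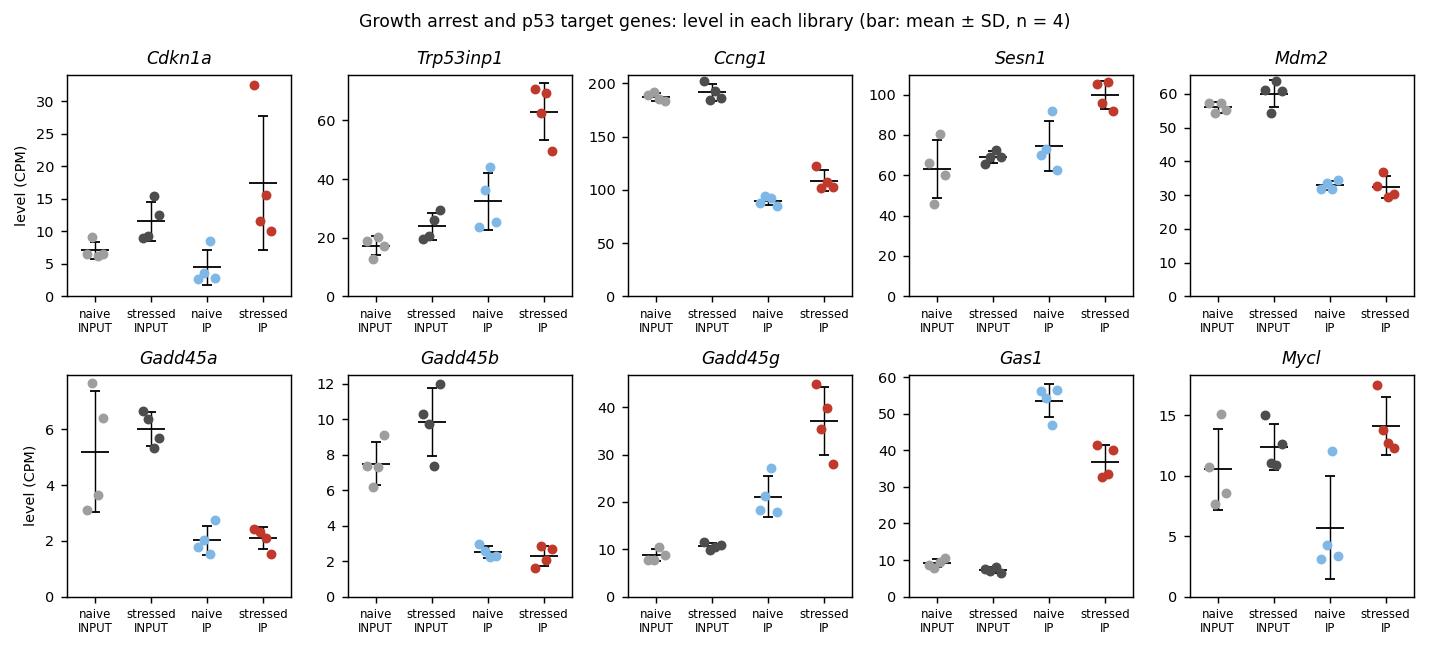
Level of each gene in CPM (linear axes from 0) in the 16 libraries, 4 per group, with the group mean and SD as bars. Gas1, Gadd45g and Trp53inp1 are higher in IP than in INPUT, Gadd45a, Gadd45b, Mdm2 and Ccng1 are lower, and in Cdkn1a and Mycl a single naïve IP library (11) lies well above the other 3.

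The first comparison asked which of these transcripts were more and which less abundant on astrocyte ribosomes than in the whole cortex. Over both conditions, 4 of the 10 genes were higher in IP (Gas1, Gadd45g, Trp53inp1 and Sesn1) and 4 were lower (Gadd45b, Gadd45a, Ccng1 and Mdm2), while Cdkn1a and Mycl did not pass the test. Across all 13341 genes tested, 25.2% were higher in IP and 65.9% lower at the same threshold. Before rescaling the share of members lower in IP was thus below that of all genes and the share of members higher was above it. The median gene had a log2 ratio of −0.64, a shift that depends on the scaling: after rescaling each library by its median ratio the median was −0.01 and 5870 genes were higher and 5899 lower, in place of 3364 and 8790. The median over the members was −0.30 before rescaling. The calls of all 8 members were the same after rescaling, with the same signs. The share of members higher in IP was then no longer above that of all genes. The comparison of shares thus depends on the scaling and is no result about the group.

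Gas1 (chr13:60174405-60177365, minus strand) had the largest ratio. In INPUT it was at 8.70, 7.89, 9.43 and 10.4 CPM in the naïve libraries 3, 7, 14 and 16 and at 7.56, 7.05, 8.08 and 6.40 CPM in the stressed libraries 1, 9, 10 and 12. In IP it was at 56.4, 54.4, 47.1 and 56.6 CPM in the naïve libraries 2, 8, 11 and 13 and at 41.4, 32.7, 33.6 and 40.1 CPM in the stressed libraries 4, 5, 6 and 15. Every IP library was thus above every INPUT library. The log2 ratio of IP to INPUT was 2.44 (SE 0.07, limma adjusted p = 7.55e-17), and 3.07 after rescaling, which placed Gas1 at percentile 96.0 of all genes tested.

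Gadd45g (chr13:51846678-51848468, plus strand) was at 7.79, 7.71, 10.4 and 8.80 CPM in naïve INPUT and at 11.5, 9.82, 10.5 and 11.0 CPM in stressed INPUT. In IP it was at 18.3, 21.3, 27.1 and 17.8 CPM in naïve and at 45.0, 35.4, 39.8 and 28.0 CPM in stressed libraries. All 8 IP libraries were above all 8 INPUT libraries, with a log2 ratio of 1.51 (SE 0.10, limma adjusted p = 2.99e-11). Its paralogs went the opposite way. Gadd45a (chr6:67035096-67037457, minus strand) ranged from 3.11 to 7.65 CPM in INPUT and from 1.53 to 2.75 CPM in IP, with a log2 ratio of −1.38 (SE 0.18, limma adjusted p = 4.21e-07). Gadd45b (chr10:80930073-80932204, plus strand) ranged from 6.18 to 12.0 CPM in INPUT and from 1.61 to 2.99 CPM in IP, with a log2 ratio of −1.80 (SE 0.13, limma adjusted p = 1.03e-10).

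Levels of different genes can be compared only per length, so CPM was divided by the exon length of each gene in kb (GENCODE M21). On that scale Gadd45g made up 49.3% ± 6.13 (SD, n = 4) of the summed level of the 3 Gadd45 genes in naïve INPUT and 86.5% ± 3.37 in naïve IP, and the libraries did not overlap. Gadd45b made up 31.3% ± 4.20 in naïve INPUT and 7.83% ± 1.90 in naïve IP. Gadd45a made up 19.4% ± 7.63 and 5.72% ± 2.13. In naïve IP the order was therefore Gadd45g at 18.0 ± 3.63 CPM per kb, Gadd45b at 1.58 ± 0.217 and Gadd45a at 1.14 ± 0.300, the last a pair whose ranges over libraries overlapped.

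Trp53inp1 (chr4:11156431-11174379, plus strand) was at 18.7, 12.8, 20.3 and 17.0 CPM in naïve INPUT and at 19.4, 20.5, 26.0 and 29.4 CPM in stressed INPUT. In IP it was at 23.7, 36.2, 44.1 and 25.3 CPM in naïve and at 70.6, 62.4, 69.4 and 49.5 CPM in stressed libraries. Within each condition the IP libraries lay above the INPUT libraries, and the log2 ratio over both conditions was 1.14 (SE 0.13, limma adjusted p = 1.16e-07). Its paralog Trp53inp2 was also higher in IP (log2 ratio 1.49, SE 0.05) and was the more abundant of the pair per kb, so that Trp53inp1 was 8.21% ± 2.92 of their sum in naïve IP.

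Sesn1 (chr10:41809935-41908424, plus strand) was higher in IP by a smaller log2 ratio than the other 3. It was at 66.0, 45.5, 80.6 and 60.4 CPM in naïve INPUT and at 69.8, 73.2, 91.8 and 62.6 CPM in naïve IP, and these ranges overlapped. In stressed mice it was at 65.5, 69.3, 72.7 and 69.1 CPM in INPUT and at 105, 95.8, 106 and 92.1 CPM in IP, which did not overlap. The log2 ratio over both conditions was 0.39 (SE 0.09, limma adjusted p = 0.000575), and 1.03 after rescaling. With the naïve libraries alone it was 0.25 (limma adjusted p = 0.131), so the call did not hold there. Over the other alternatives the adjusted p was lower, from 2.58e-09. Within the sestrins Sesn1 made up 69.9% ± 5.21 of the level per kb in naïve INPUT and 54.8% ± 2.56 in naïve IP, where Sesn3 made up 35.8% ± 2.12.

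Ccng1 and Mdm2 had the least spread of the 10 genes in both naïve groups, and both were lower in IP. Ccng1 (chr11:40748552-40755311, minus strand) was at 189, 192, 185 and 184 CPM in naïve INPUT and at 88.0, 94.3, 92.7 and 84.6 CPM in naïve IP. Its log2 ratio over both conditions was −0.94 (SE 0.04, limma adjusted p = 3.23e-14), and −0.30 after rescaling. It was also the most abundant member per kb, at 53.4 ± 1.08 CPM per kb in naïve INPUT, and made up 88.6% ± 0.745 of the summed level of Ccng1 and Ccng2 there. Mdm2 (chr10:117688875-117710758, minus strand) was at 57.3, 54.2, 57.4 and 55.1 CPM in naïve INPUT and at 31.7, 33.5, 31.9 and 34.5 CPM in naïve IP. Its log2 ratio was −0.83 (SE 0.05, limma adjusted p = 4.91e-12), and −0.19 after rescaling, close to the median gene. Mdm4, the relative of Mdm2 that also binds p53, had a log2 ratio of −0.95 (SE 0.06).

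Cdkn1a (chr17:29090976-29100727, plus strand) was at 6.49, 9.07, 6.23 and 6.51 CPM in naïve INPUT and at 2.69, 3.63, 8.54 and 2.87 CPM in naïve IP. In stressed mice it was at 8.91, 9.23, 15.4 and 12.6 CPM in INPUT and at 32.6, 11.6, 15.6 and 10.0 CPM in IP. In naïve mice 3 of the 4 IP libraries lay below all INPUT libraries and library 11 lay among them, whereas the stressed ranges overlapped. The log2 ratio over both conditions was −0.17 (SE 0.24, limma adjusted p = 0.503). It was 0.46 after rescaling (limma adjusted p = 0.0894, and 0.029 to 0.798 over the alternatives that kept both conditions). In naïve mice alone the ratio was −0.81, and in stressed mice alone it was 0.47. Cdkn1a was picked partly for its IP values in these groups, so these ratios are a description without a test. With quantile normalization over both conditions Cdkn1a was higher in IP and passed the threshold (0.59, limma adjusted p = 0.029).

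Mycl (chr4:122995652-123002485, plus strand) had the same layout. It was at 10.7, 7.65, 15.1 and 8.59 CPM in naïve INPUT and at 3.08, 4.30, 12.1 and 3.33 CPM in naïve IP. In stressed mice it was at 15.0, 11.0, 10.9 and 12.6 CPM in INPUT and at 17.5, 13.8, 12.7 and 12.3 CPM in IP. Here too library 11 lay within the INPUT range and the other 3 naïve IP libraries below it. The log2 ratio over both conditions was −0.44 (SE 0.22, limma adjusted p = 0.0625), and 0.19 after rescaling. In naïve mice alone it was −1.06, and in stressed mice alone it was 0.18. Mycl too was picked partly for its IP values, so these ratios are a description without a test. Without library 11 the ratio over both conditions was −0.66 (limma adjusted p = 0.000159, and up to 0.424 over all alternatives). That library stood apart in these same IP values, so the lower p is no independent evidence.

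**Figure D2:**
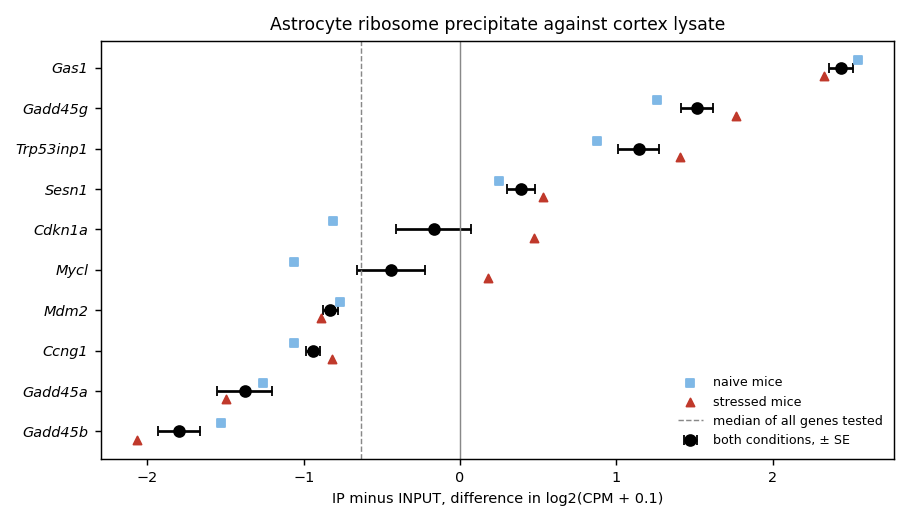
Difference in log2(CPM + 0.1) between IP and INPUT for each gene, over both conditions with its SE (circles), in naïve mice (squares) and in stressed mice (triangles), with the median of all genes tested (−0.64) as a dashed line. Gas1, Gadd45g, Trp53inp1 and Sesn1 lie above 0, Gadd45b, Gadd45a, Ccng1 and Mdm2 below it, and the naïve and stressed values of Cdkn1a and Mycl lie on opposite sides of 0.

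The second comparison asked whether the 10 genes differed between stressed and naïve mice in the whole cortex, in libraries that the choice of the genes had not used directly. By the study's methods 8 mice gave the 16 libraries, so INPUT and IP came from the same animals, and the INPUT values are not independent of a choice made on IP. No member passed the threshold in INPUT (limma, 0 of 10, and 0 of 10 with limma-voom), where 0.0442% of 13577 genes were called. At an unadjusted p under 0.05, 5 of the 10 genes were found by limma and 5 by limma-voom, against 5.03% of all genes, and they were Cdkn1a, Trp53inp1, Gadd45b and Gadd45g, with higher means in stressed mice, and Gas1, with a lower mean. Of these, 4 (Cdkn1a, Trp53inp1, Gadd45g and Gas1) were among the 5 picked for their IP difference, so the count is no independent evidence about the group. The log2 difference was above 0 for 9 of the 10 genes, and the median over the members was 0.28 against −0.0025 over all genes. The stressed and naïve libraries overlapped for all 10 genes, and 2.87% of all genes did not overlap. In bulk samples such as these, fewer cells of a type and less RNA per cell cannot be told apart.

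Cdkn1a had the largest difference of the 10 genes in INPUT, with 11.5 ± 3.06 CPM in stressed and 7.08 ± 1.33 CPM in naïve mice (SD, n = 4). Naïve library 7, at 9.07 CPM, was above stressed library 1, at 8.91 CPM, and the other naïve libraries were below all stressed ones. The log2 difference was 0.68 (SE 0.18, limma adjusted p = 0.401), and the two-sided exact permutation test gave p = 0.0571, where the smallest p that 70 labelings allow is 0.0286. With limma's array weights, which give less weight to deviating libraries, Cdkn1a passed the threshold (log2 difference 0.80, adjusted p = 0.041), and over all alternatives the adjusted p ranged from 0.041 to 1. Leaving out each library in turn kept the log2 difference between 0.53 and 0.80.

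Trp53inp1 was at 23.8 ± 4.71 CPM in stressed and 17.2 ± 3.24 CPM in naïve INPUT, and naïve library 14, at 20.3 CPM, was above stressed library 1, at 19.4 CPM. The log2 difference was 0.46 (SE 0.15, limma adjusted p = 0.706, exact permutation p = 0.0571). Without library 14 it was 0.55 (limma adjusted p = 0.311, and 0.113 to 1 over all alternatives). Among the Gadd45 genes, Gadd45b was at 9.84 ± 1.91 CPM in stressed and 7.48 ± 1.21 CPM in naïve INPUT (log2 difference 0.38, SE 0.16, limma adjusted p = 0.945). Gadd45g was at 10.7 ± 0.706 and 8.68 ± 1.26 CPM (log2 difference 0.30, SE 0.12, limma adjusted p = 0.905). Gadd45a was at 6.01 ± 0.602 and 5.20 ± 2.18 CPM (log2 difference 0.30, SE 0.24, limma adjusted p = 0.994). Its naïve libraries spread more than the others, since libraries 3 and 14 were at 3.11 and 3.64 CPM and libraries 7 and 16 at 7.65 and 6.41 CPM.

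Gas1 was the single member with a lower mean in stressed INPUT, at 7.27 ± 0.719 against 9.11 ± 1.08 CPM (log2 difference −0.32, SE 0.12, limma adjusted p = 0.894, exact permutation p = 0.0571). Astrocyte markers summed to 5411 to 5980 CPM in stressed and 5895 to 6302 CPM in naïve INPUT, and endothelial markers to 42.3 to 62.9 and 50.6 to 81.1 CPM, with 0 of 8 and 0 of 5 past the threshold and 1 of 8 and 3 of 5 at an unadjusted p under 0.05. Oligodendrocyte markers summed to 1460 to 1650 CPM in stressed and 1636 to 1806 CPM in naïve INPUT, with 3 of 7 at an unadjusted p under 0.05, microglial markers to 217 to 258 and 238 to 257 CPM, with 2 of 6, and fibroblast markers to 24.4 to 29.0 and 18.8 to 26.2 CPM, with 1 of 3. Of the 35 markers of cell types other than astrocytes, 27 had a log2 difference below 0 in INPUT, 11 had an unadjusted p under 0.05 and 0 passed the threshold. The part of these cell types in the INPUT values of the 10 genes was not tested. Mycl had an INPUT difference of 0.27 on the log2 scale (SE 0.18), which was 0.46 without naïve library 14 and 0.14 without naïve library 7. For Sesn1 it was 0.16 (SE 0.13), or 0.29 and 0.013 without these libraries. Mdm2 had 0.10 (SE 0.06) and Ccng1 0.03 (SE 0.05). Ccng1 was at 191 ± 8.11 CPM in stressed and 188 ± 3.81 CPM in naïve INPUT.

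Between stressed and naïve mice in IP, the contrast used to choose the genes, 7 of the 10 genes had libraries that did not overlap. Cdkn1a, Trp53inp1, Gadd45g, Sesn1, Ccng1 and Mycl were higher in all 4 stressed libraries than in all 4 naïve libraries and Gas1 was lower, while Gadd45a, Gadd45b and Mdm2 overlapped. Of all 12501 genes in IP, 5.00% did not overlap, 0.440% passed the adjusted threshold and 8.27% had an unadjusted p under 0.05. Because 5 of the genes were picked for this difference, these counts say nothing about the group beyond the choice. The median log2 difference of the members was 0.35, and that of all genes −0.0036.

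Cdkn1a had the highest ratio of means, with 17.5 ± 10.4 CPM in stressed and 4.43 ± 2.77 CPM in naïve IP, a fold of 3.94 and a log2 difference of 1.96. Stressed library 4, at 32.6 CPM, was apart from the other stressed libraries (10.0 to 15.6 CPM), and naïve library 11, at 8.54 CPM, lay nearer to the lowest stressed library than to the other naïve libraries (2.69 to 3.63 CPM). Without library 11 the log2 difference was 2.32. Mycl had 14.1 ± 2.39 CPM in stressed and 5.69 ± 4.28 CPM in naïve IP, a fold of 2.47 and a log2 difference of 1.51, or 1.95 without library 11. In the highest naïve library Mycl was at 12.1 CPM and in the lowest stressed library at 12.3 CPM, so the groups were parted by a narrow gap that library 11 set.

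Trp53inp1 had 63.0 ± 9.69 CPM in stressed and 32.3 ± 9.62 CPM in naïve IP, a fold of 1.95, and Gadd45g had 37.0 ± 7.19 and 21.1 ± 4.26 CPM, a fold of 1.75. The lowest stressed library was 15 for both genes, at 49.5 and 28.0 CPM, and the highest naïve library was 11, at 44.1 and 27.1 CPM. Sesn1 had 99.9 ± 7.02 and 74.3 ± 12.4 CPM, a fold of 1.34, with stressed library 15 at 92.1 CPM next to naïve library 11 at 91.8 CPM. Ccng1 was at 123, 102, 107 and 103 CPM in the stressed libraries, all above the naïve ones. Its means were 109 ± 9.61 and 89.9 ± 4.41 CPM, a fold of 1.21, and it was the member among these whose difference was least changed by leaving out library 11 (log2 difference 0.27 with it and 0.29 without it).

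Gas1 went the other way, with 37.0 ± 4.43 CPM in stressed and 53.6 ± 4.48 CPM in naïve IP, a log2 difference of −0.54. Gadd45a (2.09 ± 0.396 and 2.01 ± 0.530 CPM), Gadd45b (2.29 ± 0.572 and 2.51 ± 0.344 CPM) and Mdm2 (32.3 ± 3.32 and 32.9 ± 1.36 CPM) differed by less than the SD of either group. Thus among the Gadd45 genes the stressed and naïve IP libraries were apart for Gadd45g only, and its share of their summed level per kb was 92.1% ± 1.87 in stressed and 86.5% ± 3.37 in naïve IP. Endothelial markers summed to 7.35 to 9.37 CPM in stressed and 9.50 to 13.3 CPM in naïve IP, neuronal markers to 334 to 492 and 423 to 551 CPM, and astrocyte markers to 89609 to 101384 and 93099 to 97121 CPM. Their part in the IP values was not tested.

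**Figure D3:**
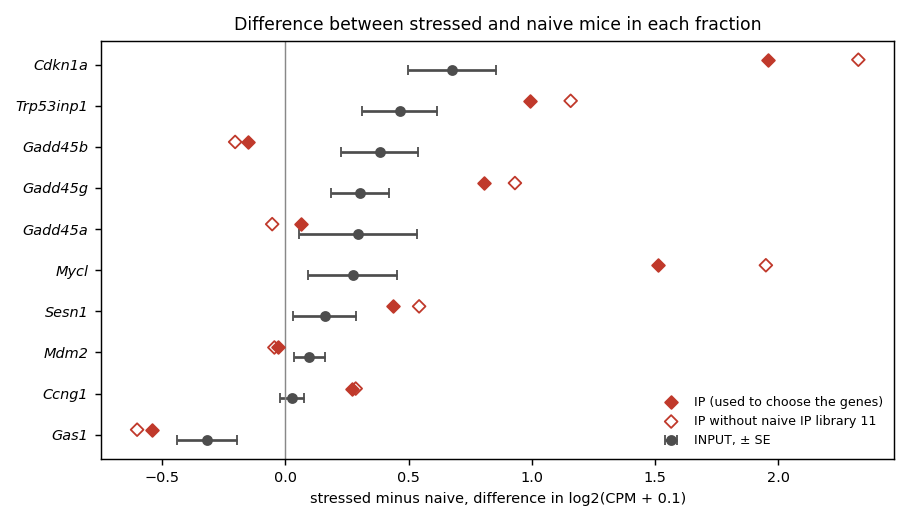
Difference in log2(CPM + 0.1) between stressed and naïve mice for each gene, in INPUT with its SE (circles), in IP (filled diamonds) and in IP without naïve library 11 (open diamonds). In INPUT 9 of the 10 genes lie above 0 and none passed the threshold, and in IP the values run from −0.54 for Gas1 to 1.96 for Cdkn1a.

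Within their families, the 6 genes that were higher in all stressed IP libraries had a larger mean part of the summed level per kb in stressed than in naïve IP. Cdkn1a made up 19.6% ± 7.67 of Cdkn1a, Cdkn1b and Cdkn1c in stressed and 5.99% ± 3.58 in naïve IP, and 16.9% ± 3.23 and 10.9% ± 1.89 in INPUT. Cdkn1b, which encodes p27, was the most abundant of these 3 inhibitors in every group, with 89.9% ± 5.61 in naïve IP. Mycl made up 65.4% ± 1.31 of Myc, Mycn and Mycl in stressed IP and 39.1% ± 11.2 in naïve IP, where Myc made up 52.9% ± 8.68. Mycn was at 0.312 to 0.930 CPM in IP and at 4.84 to 9.41 CPM in INPUT. The ranges over libraries did not overlap between stressed and naïve IP for Cdkn1a (14.5% to 30.9% and 3.85% to 11.3%), for Mycl (64.1% to 66.7% and 29.7% to 53.7%), for Sesn1 (58.72% to 63.76% and 53.04% to 58.61%) or for Trp53inp1 (12.9% to 16.0% and 5.87% to 11.9%). They overlapped for Gadd45g (90.4% to 94.2% and 83.5% to 91.0%) and for Ccng1 in its pair with Ccng2 (92.66% to 93.81% and 90.95% to 92.72%). These shares use the levels on which the genes were chosen and were not tested.

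**Figure D4:**
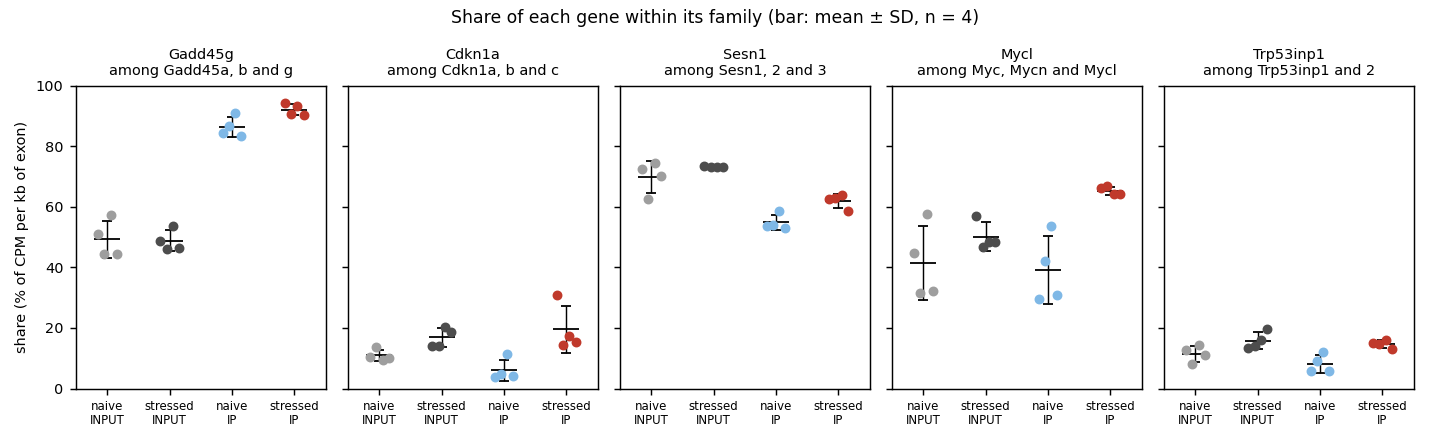
Share of Gadd45g, Cdkn1a, Sesn1, Mycl and Trp53inp1 in the summed level of their families, in percent of CPM per kb of exon, in each library with the group mean and SD. Gadd45g is 49.3% of the sum in naïve INPUT and 86.5% in naïve IP, and Cdkn1a stays a minor part in every group.

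The spread between libraries of a group was not shared evenly among the genes or the libraries. The coefficient of variation in naïve IP was 62.5% for Cdkn1a and 75.1% for Mycl, against 4.15% for Mdm2 and 4.91% for Ccng1, and in naïve INPUT it was 42.0% for Gadd45a and 31.6% for Mycl against 2.03% for Ccng1. Naïve IP library 11 was the highest of its group for Cdkn1a, Trp53inp1, Gadd45g, Sesn1 and Mycl and the lowest for Gas1, the direction in which the stressed IP libraries lay for each of these 6 genes. It was also the lowest for Gadd45a and Gadd45b. Among all 12501 genes in IP it was the highest library for 21.0% and the lowest for 41.7%. Naïve INPUT library 14 was the highest of its group for Trp53inp1, Gadd45g, Mdm2, Sesn1 and Mycl and the lowest for Cdkn1a. Naïve INPUT library 7 was the lowest for 7 genes and the highest for Cdkn1a, Gadd45a and Ccng1. Among all 13577 genes in INPUT, library 14 was the highest of its group for 30.3% and the lowest for 30.2%. Library 7 was the lowest for 34.6% and the highest for 20.2%. Among the stressed IP libraries, library 4 was the highest for 7 of the 10 genes and library 15 the lowest for 6, and among all genes in IP these were 18.2% and 33.2%. Fkbp5 was also highest in library 4 (71.8 CPM) and lowest in library 15 (20.1 CPM) there. Libraries 5 and 6 had 29.7 and 28.2 CPM of it. Mycl and Gadd45a had the same order over the stressed IP libraries, and the other members, Cdkn1a, Trp53inp1 and Gadd45g among them, did not. A link to Fkbp5 was not tested.

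**Figure D5:**
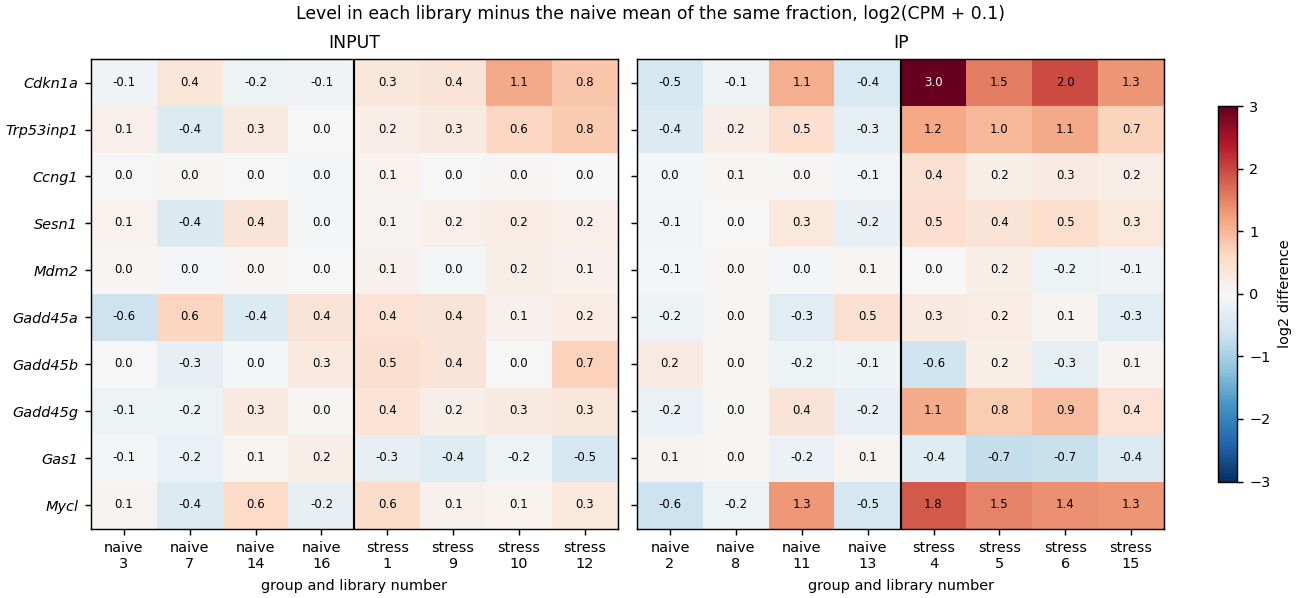
Level of each gene in each library minus the mean of the naïve libraries of the same fraction, in log2(CPM + 0.1), for INPUT (left) and IP (right), with the value printed in each cell. In IP, library 11 of the naïve group has values above 1 for Cdkn1a and Mycl, and all 4 stressed libraries have values above those of the naïve libraries for these genes.

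Other genes of the pathway came from lists of 107 genes, of which 106 were in the tables (p53 regulators, other p53 targets, paralogs of the 10 genes, inhibitors of cyclin-dependent kinases and pocket proteins, G1 cyclins and their kinases, proliferation genes, the MYC network, other growth arrest genes and the Hedgehog pathway). None passed the threshold between stressed and naïve mice. In INPUT 0 of 85 tested were called by limma and 0 by limma-voom, with 7 and 6 at an unadjusted p under 0.05, where limma called 0.0442% of all genes and 5.03% had an unadjusted p under 0.05. In IP 0 of 81 were called by either tool, with 13 and 12 at an unadjusted p under 0.05, where limma called 0.440% of all genes and 8.27% had an unadjusted p under 0.05. The median log2 difference of these genes was −0.03 in INPUT and −0.02 in IP.

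Among p53 itself and its regulators, 12 were tested in IP and 0 called. Trp53, the gene of p53, was at 8.07 to 10.4 CPM in stressed and 10.1 to 11.8 CPM in naïve IP (log2 difference −0.25, SE 0.11, limma adjusted p = 0.579). Atm, a kinase that activates p53 after DNA breaks, was at 50.1 to 53.5 and 47.6 to 52.9 CPM, and Usp7, a deubiquitinase of Mdm2, at 137 to 169 and 151 to 167 CPM. Hipk2, a kinase of p53, had a log2 ratio of IP to INPUT of 3.09 (SE 0.07).

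Of the other p53 targets, 0 of 18 were called in IP and 0 of 21 in INPUT. Of all genes 0.440% and 0.0442% were called, so a list this short would rarely hold a call. The list also leaves out the members, so these counts say nothing about p53 targets as a group. The closest in size to the members was Ddit4, an inhibitor of mTORC1 that also responds to glucocorticoids, at 31.9 to 47.6 CPM in stressed and 20.0 to 30.5 CPM in naïve IP (log2 difference 0.52, SE 0.14, limma adjusted p = 0.237) and at 15.6 to 21.5 and 7.34 to 16.7 CPM in INPUT (0.63, SE 0.20, limma adjusted p = 0.636). It was singled out after its values were seen. The cell death genes Bax and Bbc3 had log2 differences of −0.06 and −0.10 in INPUT, and Bax −0.04 in IP. In IP over INPUT 16 of 21 of these targets were lower and 2 higher, or 11 lower and 8 higher after rescaling. Of all 13341 genes tested 65.9% were lower and 25.2% higher, or 5899 lower and 5870 higher after rescaling. The count thus depends on the scaling and is no result about these targets. Zfp365 (log2 ratio −3.65, SE 0.07) and the kinase Plk2 (−3.31, SE 0.06) were among the lower targets.

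Pocket proteins, which restrain the G1 to S step, were higher in IP: Rb1 by a log2 ratio of 2.03 (SE 0.05) and Rbl2 by 1.13 (SE 0.04). Between stressed and naïve IP, Rb1 lay at 215 to 219 and 187 to 202 CPM (log2 difference 0.17, SE 0.05, limma adjusted p = 0.277). The D-type cyclins Ccnd1 and Ccnd2 had log2 ratios of IP to INPUT of 0.68 and 2.25, and their stress differences in IP were −0.08 (SE 0.13) and −0.05 (SE 0.07). In each of the 3 comparisons 10 of 19 proliferation genes passed the filter of a mean above 1 CPM. Mki67, a marker of dividing cells, was at 0.896 to 1.22 CPM in naïve and 0.776 to 1.63 CPM in stressed IP.

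In the MYC network, Mnt, a repressor that opposes MYC, lay at 8.53 to 11.6 CPM in stressed and 12.6 to 16.3 CPM in naïve IP (log2 difference −0.50, SE 0.12, limma adjusted p = 0.148), and Mxd4, another such repressor, at 31.2 to 39.6 and 24.4 to 34.3 CPM (0.35, SE 0.11, limma adjusted p = 0.382). Without naïve library 11 Mxd4 passed the threshold (0.46, SE 0.09, limma adjusted p = 0.0371, and up to 0.838 over all alternatives), the single pathway gene that did.

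The Hedgehog pathway, to which Gas1 belongs as a co-receptor, was higher in IP for 8 of 10 genes and lower for 2. The median log2 ratio was 2.25, and the counts were the same after rescaling. Of all 13341 genes tested 25.2% were higher, or 5870 after rescaling. Gli3 (log2 ratio 4.20, SE 0.06), Ptch1 (3.07, SE 0.07) and Smo (2.28, SE 0.05) are its transcription factor, receptor and signal transducer. Boc, a co-receptor like Gas1, had a ratio of 0.32 (SE 0.04). The 2 lower genes were Cdon (−1.46, SE 0.12) and Shh (−3.95, SE 0.24). Between stressed and naïve IP 0 of 9 were called. Sufu, an inhibitor of the pathway, lay at 11.9 to 16.6 and 19.1 to 21.5 CPM (log2 difference −0.47, SE 0.11, limma adjusted p = 0.134), and the target gene Gli1 at 8.48 to 14.0 and 11.6 to 15.9 CPM (−0.41, SE 0.16, limma adjusted p = 0.522). In INPUT 0 of 10 were called and 2 had an unadjusted p under 0.05, Gli1 and Boc. Gli1 was at 1.10 to 1.82 CPM in stressed and 1.85 to 3.05 CPM in naïve INPUT (−0.63, SE 0.23, limma adjusted p = 0.845). Boc was at 44.6 to 47.0 and 48.7 to 53.8 CPM (−0.14, SE 0.06, limma adjusted p = 0.971).

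A further 17 genes of these lists, named because they were among the most abundant of their list, were Ak1, Ei24, Trp53bp1, Ccnd3, Ccne1, Ccne2, Cdk4, Cdkn2d, Gas5, Gas6, Gas7, Map3k4, Max, Mcm4, Mga, Mxi1 and Pcna. Their log2 differences between stressed and naïve mice ran from −0.57 (Ccne1) to 0.18 (Ccne2) in IP and from −0.13 (Ccne2) to 0.21 (Pcna) in INPUT. Limma called 0 of the 17 in either fraction, with 3 at an unadjusted p under 0.05 in IP and 1 in INPUT.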

How the data were processed

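RNA was sequenced from 16 libraries of somatosensory cortex of 8 mice, by the study's methods 4 males and 4 females. Per the labels and methods, the authors used STAR for alignment to mm10 and HTSeq to count uniquely mapped fragments on genes, and deposited 1 table per library of log2 CPM for 24060 genes, scaled to each library's own total with no correction for length and none between libraries. The submitters' processing notes also name edgeR and limma, whose versions are not given in the sources used here. The deposited log2 values were turned back into CPM and whole reads (100% of values within 0.1 read of a whole number). No 2 libraries were identical, and 2 symbols were repeated and kept apart.

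The R 4.3.3 package limma 3.58.1 (lmFit, eBayes with a mean-variance trend) was fitted to log2(CPM + 0.1) of genes averaging above 1 CPM, with Benjamini-Hochberg adjustment over all genes tested and a threshold of 0.05. Fold changes of low genes are understated on this scale. IP and INPUT were compared over both conditions in all 16 libraries, and stressed with naïve mice within 8 libraries of 1 fraction. For each of the 10 genes in INPUT a two-sided exact permutation test ran over 70 labelings. Replicates are separate libraries by the labels, and libraries of 1 mouse cannot be paired. The methods place the experiments closer to the tamoxifen injections than the labels do. The 10 genes and the lists were chosen with earlier results of these data known. Named were all 10 genes, and from each list the genes past the threshold in a stress comparison and up to 4 with the highest mean level. Others named from the lists (Trp53, Ddit4, Bax, Bbc3, Cdkn1c, Ccng2, Mki67, Myc, Mycn, Mnt, Sufu, Gli1, Cdon, Shh) were chosen from their values, as paralogs of the 10 genes or as textbook genes. Coordinates and exon lengths came from GENCODE M21, windows from RefSeq. Python 3.11.15, NumPy 2.4.6, pandas 2.3.3, SciPy 1.17.1 and matplotlib 3.10.9 were used. The fits were also run on simulated reads with a single low dispersion for all genes. Cdkn1a and Mycl spread more than that in naïve IP, so the run says nothing about the power for them. Alternatives were pseudocounts of 1 and 0.01, limma-voom with TMM, no filter, quantile normalization, median-ratio rescaling, a filter at 5 CPM, no trend, array weights, Xist as a covariate, all 16 libraries in one model, naïve or stressed mice alone, and each library left out.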

Additional observations from a re-analysis of the deposited data

Results flagged for a closer look

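In 3 of 40 groups of 4 libraries (10 genes in 4 groups) the most extreme library was separated from the rest by more than Dixon's 95% limit, where chance gives about 1 group in 20. Cdkn1a was at 9.07 CPM in naïve INPUT library 7, against 6.23 to 6.51 CPM in the other naïve INPUT libraries. In naïve IP library 11, Cdkn1a was at 8.54 CPM, with 2.69 to 3.63 CPM elsewhere in naïve IP, and Mycl at 12.1 CPM, with 3.08 to 4.30 CPM in the rest of the group.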

How the results depend on the processing

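The counts of genes higher (4) and lower (4) in IP were the same or within 1.5 times under all alternatives run. Cdkn1a and Mycl were not called in IP over INPUT. Mycl passed the threshold with array weights and without libraries 4, 7 or 11. Both genes also fell past it in naïve mice alone (−0.81 and −1.06). All of these fits, with array weights, without a library or in naïve mice alone, use the IP values for which both genes were picked. They are therefore no independent evidence. Both changed sign under other settings: 0.46 and 0.19 on the log2 scale with median-ratio rescaling, 0.59 (past the threshold) and 0.29 with quantile normalization, 0.48 and 0.21 with limma-voom, and 0.47 and 0.18 in stressed mice alone. Those 3 scalings also moved the median of all genes from −0.64 to between −0.01 and 0.02. In INPUT, limma array weights called 1 of the 10 genes (Cdkn1a) in place of 0, and leaving out each library gave 0 to 0. The pathway genes called in IP went from 0 to 1 (Mxd4) without naïve IP library 11, and leaving out any other library gave 0. The cause of these changes was not tested. No paired analysis was possible because the groups share no library numbers. The edgeR quasi-likelihood test was not run, because the deposited values are log2 CPM. Over the 10 genes, direction and side of the threshold were the same in 264 of 279 alternative values of IP over INPUT and in 189 of 190 of stress in INPUT, and all 188 values of stress in IP moved by less than the spread between libraries.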
